A study of Homo sapiens with 24 samples.

Results

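Replication-dependent histone mRNAs encode the linker histone H1 and the core histones H2A, H2B, H3 and H4 that package newly copied DNA. They were taken as the protein-coding genes of the HIST1, HIST2, HIST3 and HIST4 clusters, by symbol, with at least 10 counts summed over the 8 input libraries and with pseudogenes left out. This gave 51 histone genes of 57992 genes in the table: 4 for H1, 13 for H2A, 13 for H2B, 9 for H3 and 12 for H4. Of these, 48 had enough counts for the test. The linker gene HIST1H1T, HIST1H2AJ and HIST1H2BE did not, with 15, 19 and 17 counts over the 8 inputs. The names were matched in the older HGNC form that the annotation of the files uses (HIST1H4I is now H4C9, for example).

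In animal cells most mRNAs end in a poly(A) tail, and the replication-dependent histone mRNAs end instead in a short stem-loop that the stem-loop binding protein SLBP binds. Their genes mostly lack introns, and the mRNAs are made in S phase, when DNA is copied, and are destroyed when copying stops. Stress granules are assemblies of stalled mRNAs and proteins that form in the cytoplasm under stress such as arsenite, and processing bodies (P-bodies) are granules rich in proteins that repress and decap mRNA.

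The series labels RNA near granule proteins in HEK293T, a cell line from human embryonic kidney. Each line carried a fusion of 1 bait with miniSOG, a light-activated protein that makes singlet oxygen: TIA1-miniSOG or G3BP2-miniSOG, both proteins of stress granules, or miniSOG-DDX6, a helicase of P-bodies. Oxidised guanines close to the bait react with propargylamine, and the tagged RNA is joined to biotin and captured on streptavidin. TIA1, G3BP2 and DDX6 cells were labelled under 0.5 mM sodium arsenite, which was added 40 min ahead of the probe for a total of 1 hr, and DDX6 cells were also labelled with no stress. All were given light at 24 mW/cm2 for 15 min, and the probe, where used, was 10 mM for 5 min. Each of these 4 settings had 3 kinds of library in 2 replicates, 24 in all: labelled captures (RNA eluted from streptavidin), no-probe captures (the same steps without propargylamine) and inputs (total RNA before the capture). Each bait has its own line, so bait and line cannot be told apart, and the labels do not give the number of clones behind a line.

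Library totals ran over 3344960 to 5919467 counts in labelled captures, 1129510 to 3472565 in no-probe captures and 2511043 to 3825961 in inputs. In its own line, TIA1 had 357 and 358 CPM in the inputs (counts per 1e6 counts, CPM, after trimmed-mean scaling), against 54.1 to 64.9 CPM in the 6 other inputs. G3BP2 had 468 and 444 CPM in the inputs of its own line, and DDX6 had 1120 and 1100 CPM under arsenite and 1160 and 1110 CPM unstressed in its own, each above every input of the other lines. The kidney gene PAX2 was counted in every library. Of 6 markers of other cell types, only the collagen gene COL1A1 passed the filter on low counts. Mitochondrial transcripts took 1.74 to 8.48% of the counts of labelled captures, 18.8 to 30.2% of no-probe captures and 23.7 to 31.6% of inputs, and the part of this in the results below was not tested.

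A script searched the 150 bases after each stop codon in GENCODE 29 transcripts (GRCh38) for the stem-loop: 6 paired bases on each side of a 4-base loop, opening in GG, closing in CC and with TT as the first 2 loop bases. A perfect match stood in 27 of the 51 histone genes (52.9%). Of 19359 other protein-coding genes, counted only if they had at least 16 annotated bases after the stop codon, 7 (0.036%) had one. Only 33 of the 51 have at least 16 annotated bases after the stop codon, so the other models end too early to hold it. All 27 matches are among these 33. Some of the 33 had no match, even with 1 mismatched pair allowed: HIST1H1E, HIST1H1T, HIST1H2BJ, HIST1H3E and HIST1H4C. They have up to 57, 51, 569, 1908 and 51 annotated bases after the stop codon in the same order. The perfect matches came in 4 forms, and the H4 genes had 2 of them that no H2A, H2B or H3 gene had. The sequences below show each form in a gene that the results turn on, together with HIST1H2AG. Its stem has 1 T facing a G (U and G in RNA), which the search counted as a mismatched pair. Capitals mark the stem-loop and the 5 bases on each side are in lower case, read 5′ to 3′ on the gene's strand.
HIST2H2BE: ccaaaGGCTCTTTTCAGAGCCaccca
HIST1H2BF: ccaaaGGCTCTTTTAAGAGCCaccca
HIST1H4J: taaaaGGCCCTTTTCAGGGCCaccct
HIST1H4I: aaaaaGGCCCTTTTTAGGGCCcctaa
HIST1H2AG: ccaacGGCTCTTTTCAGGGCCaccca
In HIST2H2BE the stem-loop lies at chr1:149886188-149886203 on the minus strand and starts 57 bases after the stop codon. In HIST1H2BF it lies at chr6:26199968-26199983 on the plus strand, 29 bases after the stop. The H4 genes have it at chr6:27824459-27824474 in HIST1H4J, 23 bases after the stop, and at chr6:27139654-27139669 in HIST1H4I, 34 bases after it, both on the plus strand. In HIST1H2AG it lies at chr6:27133515-27133530 on the plus strand, 51 bases after the stop. All of these lie in the annotated 3′ UTR. The form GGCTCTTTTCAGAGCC was found in 16 of the genes, of types H2A, H2B and H3, and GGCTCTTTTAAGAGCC in 3 H2B genes. The 16 include HIST1H2BN, whose match at chr6:27865778-27865793 is in a spliced transcript that reaches HIST1H2AL. That match lies just past the annotated end of HIST1H2AL (chr6:27865355-27865747), whose own model ends at the stop codon and could not be searched. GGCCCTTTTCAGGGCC was found in 5 H4 genes and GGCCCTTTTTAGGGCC in 3.

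Histone genes are short: the median annotated exon length was 710 bases in the 48 tested histone genes, against 4859 bases in the 14327 tested genes with a length. In the inputs the highest level per length belonged to HIST1H2BK, an H2B gene at chr6:27146418-27146798, with 1360 to 2170 RPKM (CPM per kilobase of exon) and a median of 1640 over 8 libraries. HIST1H1E, the linker histone H1.4 gene at chr6:26156354-26157107, had 1330 to 2170 RPKM, and HIST1H3B, an H3.1 gene at chr6:26031650-26032060, had 1090 to 2090 RPKM. The ranges of these 3 genes overlap, so their order is not set beyond their spread. The highest H2A gene was HIST2H2AC, at chr1:149886975-149887364, with 573 to 1170 RPKM, and the highest H4 gene was HIST1H4C, at chr6:26103876-26104310, with 540 to 1100 RPKM. At the low end HIST2H4A had 0.903 to 2.97 RPKM. The library kit does not keep strand, and how reads that fit several genes were counted is not given in the sources used here, so values of near-identical copies (HIST2H4A and HIST2H4B, HIST2H3A and HIST2H3C, HIST2H2AA3 and HIST2H2AA4) and of the 10 histone genes that overlap another gene's exons are uncertain.

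Histone mRNA was summed over the 51 genes in each library. The TIA1 captures had 4903 and 3734 CPM of histone mRNA, against 10963 and 10490 CPM without probe and 11811 and 9620 CPM in the inputs. The G3BP2 captures had 5656 and 6451 CPM, against 10061 and 9798 CPM without probe and 9424 and 10991 CPM in the inputs. In both stress granule lines each capture lay below each no-probe capture and each input. The DDX6 captures under arsenite had 7093 and 8254 CPM, against 6025 and 12851 CPM without probe and 8963 and 10059 CPM in the inputs. Unstressed, the DDX6 captures had 4923 and 5159 CPM, against 4151 and 6337 CPM without probe and 7214 and 7243 CPM in the inputs. In the DDX6 line the captures lay below both inputs, but the no-probe libraries spread over a wide range that included the captures. As a plain share of all counts, mitochondrial ones included, the order of captures and inputs was not the same. The mean share in captures was 0.635 of that in inputs for TIA1, 0.865 for G3BP2, 1.17 for DDX6 under arsenite and 0.962 for DDX6 unstressed. Of non-mitochondrial counts alone, these ratios were 0.47, 0.669, 0.853 and 0.714 in the same order.

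**Figure D1:**
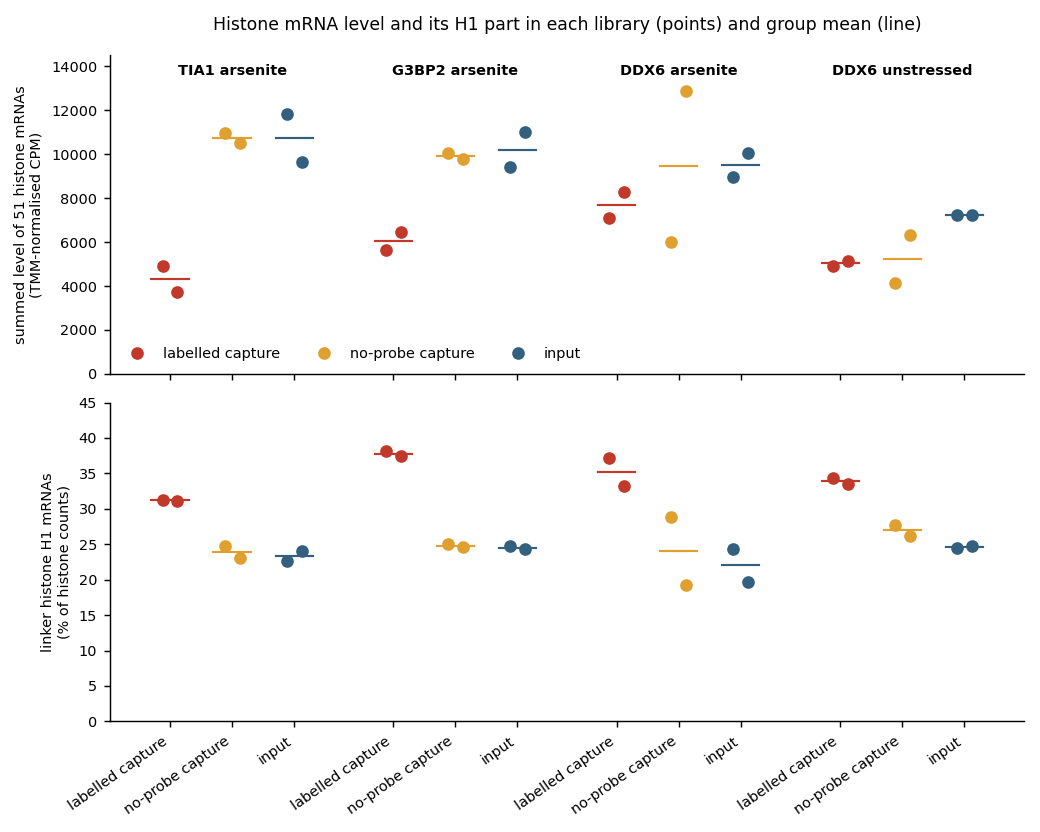
Upper panel, summed histone mRNA level in CPM after trimmed-mean scaling, and lower panel, the part of H1 mRNAs in % of histone counts; each point is 1 of 24 libraries and each line a group mean. The TIA1 captures, at 4903 and 3734 CPM, and the G3BP2 captures, at 5656 and 6451 CPM, lie below their no-probe captures and inputs, while the DDX6 no-probe libraries lie on both sides of the DDX6 captures, and H1 takes 31.1 to 38.2% in the labelled captures, above all other libraries.

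The TIA1 comparison asks which mRNAs were labelled near a core stress granule protein. Histone mRNAs of every type were lower in the TIA1 capture than in the input. Of the 48 tested histone genes 41 fell and none rose, where 16.4% of all tested genes fell and 19.4% rose. The median log2 fold change was -1.43, with a range of -2.44 to -0.55, and the median of all tested genes was 0.02. In all 48 genes both captures were below both inputs. The same held for 43 genes with G3BP2, 28 with DDX6 under arsenite and 34 with DDX6 unstressed. Both captures were above both inputs in 0, 3 and 3 genes in the same order. These counts were not made over all tested genes and have no background share, so nothing about histone genes is read from them. HIST1H2BK had 293 and 220 CPM in the captures, against 723 and 605 CPM without probe and 828 and 620 CPM in the inputs. It was 2.82-fold lower in the captures than in the inputs (log2 -1.50 ± 0.24, SE; adjusted p 9.58e-06).

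The H3 gene HIST1H3B had 275 and 221 CPM in the TIA1 captures, against 860 and 682 CPM in the inputs. The groups were far apart, and the gene was 3.10-fold lower (log2 -1.63 ± 0.29, adjusted p 4.43e-05). HIST1H4C had 158 and 112 CPM in the captures, against 477 and 368 CPM in the inputs. It was 3.13-fold lower (log2 -1.65 ± 0.25, adjusted p 6.6e-06). HIST2H2AC had 163 and 124 CPM in the captures, against 455 and 335 CPM in the inputs, a 2.76-fold fall (adjusted p 0.000116). The H2A gene HIST1H2AI, among the 3 largest falls, had 85.8 and 69.0 CPM in the captures, against 320 and 222 CPM in the inputs (log2 -1.81 ± 0.26, adjusted p 2.63e-06).

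The linker histone genes had the smallest median change of the 5 types in the TIA1 capture. HIST1H1E had 969 and 704 CPM in the captures, against 1640 and 1330 CPM in the inputs. It was 1.77-fold lower (log2 -0.83 ± 0.19, adjusted p 0.00116). HIST1H1D, the H1.3 gene at chr6:26234268-26234933, had 55.2 and 64.3 CPM in the captures and 78.5 and 96.7 CPM in the inputs. It did not pass the threshold (log2 -0.55 ± 0.22, adjusted p 0.0522), and nor did HIST2H3A (log2 -0.55, adjusted p 0.376) or HIST1H3E (log2 -0.66, adjusted p 0.0863), the other 2 with the smallest changes. By type, 2 of 3 H1 genes fell (median log2 -0.83), 11 of 12 H2A genes (-1.35), 11 of 12 H2B genes (-1.44), 7 of 9 H3 genes (-1.47) and 10 of 12 H4 genes (-1.50). HIST2H4B had the lowest fold change at low levels, with 0.742 and 0.746 CPM in the captures and 6.21 and 1.99 CPM in the inputs (log2 -2.44 ± 0.69, adjusted p 0.0062), and without input replicate 1 it was -1.38 and not called. With scaling by total counts HIST1H1E was not called either (log2 -0.17).

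The G3BP2 comparison asks the same of the other stress granule bait. Of the 48 histone genes 34 fell in the G3BP2 capture over its input and none rose, where 17.5% of all tested genes fell and 20.8% rose. The median log2 fold change was -0.93, with a range of -1.74 to 0.04, against -0.01 over all tested genes. HIST1H3B had 210 and 265 CPM in the captures, against 524 and 538 CPM without probe and 563 and 707 CPM in the inputs. It was 2.67-fold lower than in the inputs (log2 -1.42 ± 0.29, adjusted p 0.000223). HIST1H4C had 126 and 135 CPM in the captures, against 308 and 353 CPM in the inputs, and was 2.53-fold lower (adjusted p 8.07e-05).

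HIST1H2BK had 297 and 336 CPM in the G3BP2 captures and 588 and 668 CPM in the inputs, a 1.99-fold fall (adjusted p 0.00107). HIST2H2AC had 180 and 200 CPM in the captures and 370 and 442 CPM in the inputs, a 2.13-fold fall (adjusted p 0.00207). No linker gene passed the threshold: HIST1H1E had 1260 and 1400 CPM in the captures and 1230 and 1400 CPM in the inputs (log2 0.02 ± 0.19, adjusted p 0.956). Its captures and inputs overlapped. HIST1H1D gave log2 -0.10 ± 0.20 (adjusted p 0.737) and HIST2H3A 0.04 (adjusted p 0.949). Falls were called in 7 H2A genes (median log2 over the type -0.72), 11 H2B genes (-1.08), 6 H3 genes (-0.91) and 10 H4 genes (-1.05). Among the 3 lowest were HIST1H4J, with 4.16 and 4.91 CPM in the captures and 8.62 and 22.3 CPM in the inputs (log2 -1.74 ± 0.38, adjusted p 0.000565; -0.93 and not called without input replicate 2), and HIST2H4A, which was not called (log2 -1.63 ± 0.72, adjusted p 0.0708). With scaling by total counts, which moves the median of all genes up by 0.52, 16 histone genes fell and 2 rose, and HIST1H2BK and HIST2H2AC were no longer called.

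The third, HIST1H4I, stood out for its behaviour across the settings, at low levels (177 counts summed over the 8 inputs). It had 2.28 and 2.37 CPM in the G3BP2 captures, against 11.5 and 9.23 CPM without probe and 6.63 and 7.03 CPM in the inputs (log2 over input -1.54 ± 0.39, adjusted p 0.00221). In the DDX6 line under arsenite it had 2.17 and 2.61 CPM in the captures, against 12.3 and 8.56 CPM without probe and 12.9 and 14.8 CPM in the inputs. That was the largest fall of any histone gene there (log2 -2.54 ± 0.37, adjusted p 4.47e-06). In that line the inputs of this gene were higher under arsenite than unstressed, as given below. Its DDX6 captures under arsenite and unstressed overlapped. The TIA1 captures had 4.75 and 4.85 CPM and their inputs 10.6 and 6.98 CPM (log2 -0.88 ± 0.36, adjusted p 0.0541). In the plot of log2 fold changes by histone type it is the lowest point under DDX6 with arsenite.

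**Figure D2:**
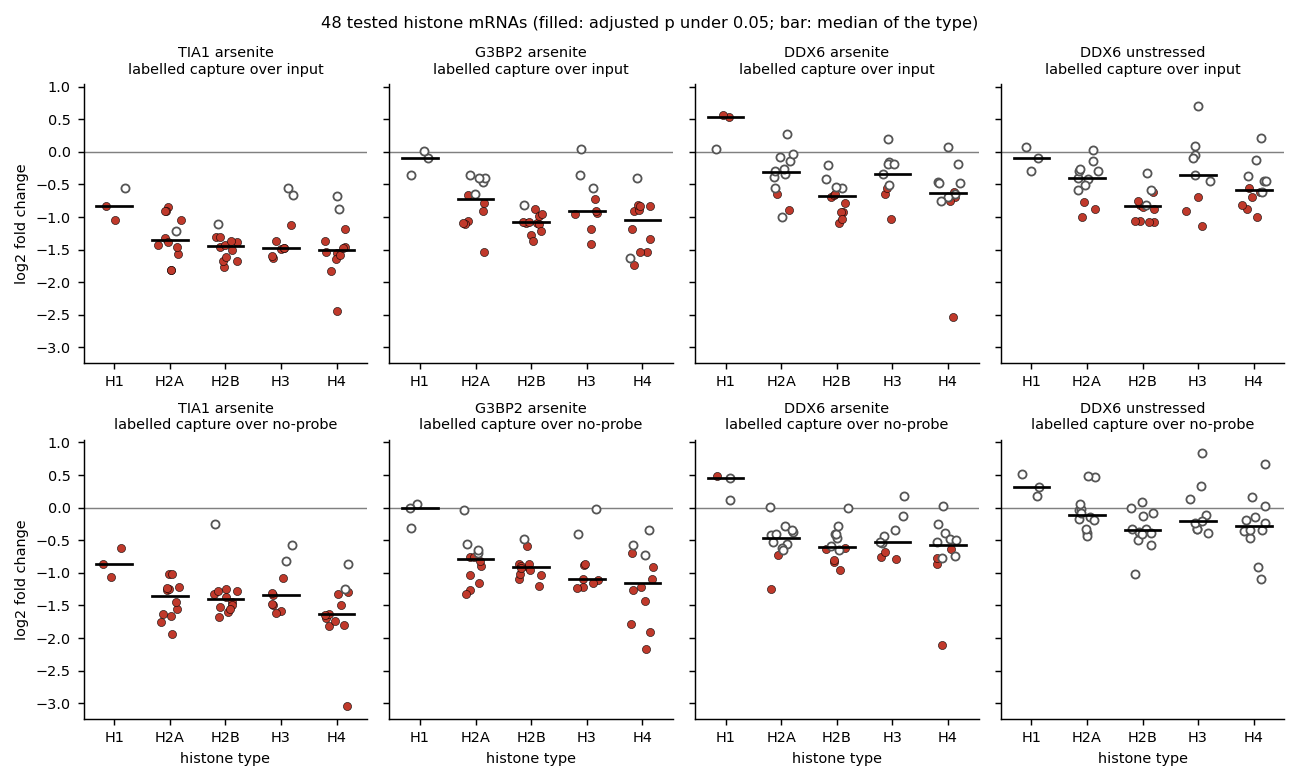
Log2 fold change of labelled capture over input (upper panels) and over no-probe capture (lower panels) for the 48 tested histone genes by histone type; each point is 1 gene, filled where adjusted p was under 0.05, and bars are medians. TIA1 values over input run over -2.44 to -0.55, and the H1 median over input is the highest of the 5 types in each setting, at 0.54 for DDX6 under arsenite.

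In the P-body line under arsenite more histone genes fell than rose after trimmed-mean scaling. Of the 48 tested, 17 fell and 2 rose in the DDX6 capture over its input, where 17.3% of all tested genes fell and 20.4% rose. The median log2 fold change was -0.53 after trimmed-mean scaling, but 0.01 when libraries were scaled by total counts, which moves the median of all genes up by 0.51 and left 2 falls and 4 rises. HIST2H2BE, an H2B gene with 186 and 235 CPM in the captures, against 394 and 499 CPM in the inputs, was among the 3 largest falls (log2 -1.09 ± 0.24, adjusted p 0.000713). HIST1H3B, with 249 and 308 CPM in the captures, against 514 and 620 CPM in the inputs, was 2.04-fold lower (adjusted p 0.0052). Both genes had captures well under both inputs.

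HIST1H4C had 189 and 229 CPM in the DDX6 captures under arsenite and 288 and 390 CPM in the inputs, a 1.62-fold fall (adjusted p 0.0252). HIST1H2BK had 385 and 483 CPM in the captures and 629 and 737 CPM in the inputs, a 1.57-fold fall (adjusted p 0.0254). HIST2H2AC, with 185 and 263 CPM in the captures and 247 and 411 CPM in the inputs, overlapped and was not called (log2 -0.56 ± 0.27, adjusted p 0.108). Both rises were of linker genes. HIST1H1E had 1700 and 1670 CPM in the captures, against 1060 and 1350 CPM without probe and 1220 and 1060 CPM in the inputs, and was 1.48-fold higher than in the inputs (log2 0.56 ± 0.19, adjusted p 0.0215). HIST1H1D had 101 and 146 CPM in the captures and 72.4 and 95.8 CPM in the inputs (log2 0.54 ± 0.21, adjusted p 0.0467). HIST1H1C, the remaining linker gene tested, had 841 and 923 CPM in the captures and 888 and 831 CPM in the inputs and was not called (log2 0.04 ± 0.20, adjusted p 0.899). The calls of HIST1H1E and HIST1H1D are close to the threshold. That of HIST1H1E was lost without either capture or without input replicate 2, and that of HIST1H1D with DESeq2, without capture replicate 2 and without input replicate 1. Of the core types, 2 H2A genes fell (median log2 -0.31), 8 H2B genes (-0.67), 3 H3 genes (-0.34) and 4 H4 genes (-0.62). There were 5 calls without capture replicate 1 and 10 without input replicate 2. The calls of HIST1H2BK and HIST1H4C were lost without either of those libraries and with total counts, and that of HIST1H3B without the capture and with total counts.

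In unstressed DDX6 cells 21 of the 48 histone genes fell in the capture over its input and none rose, where 19.6% of all tested genes fell and 22.9% rose. The median log2 fold change was -0.57, against 0.01 over all tested genes, and -0.10 with scaling by total counts, where 6 fell and 2 rose. HIST1H3B had 191 and 225 CPM in the captures, against 468 and 447 CPM in the inputs, and was 2.19-fold lower (adjusted p 0.00207). HIST1H4C had 131 and 130 CPM in the captures, against 235 and 245 CPM in the inputs, and was 1.84-fold lower (adjusted p 0.00522). In both genes captures and inputs were well separated.

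HIST1H2BK had 273 and 318 CPM in the unstressed captures and 547 and 520 CPM in the inputs, a 1.80-fold fall (adjusted p 0.0039). HIST2H2AC had 129 and 135 CPM in the captures and 224 and 228 CPM in the inputs, a 1.71-fold fall (adjusted p 0.0242). HIST1H1E had 1080 and 1080 CPM in the captures and 1010 and 1030 CPM in the inputs (log2 0.08 ± 0.19, adjusted p 0.759). Again no H1 gene was called, while 3 H2A genes (median log2 over the type -0.40), 9 H2B genes (-0.84), 3 H3 genes (-0.35) and 6 H4 genes (-0.58) fell. The H2B gene HIST1H2BF, among the 3 lowest, had 17.3 and 16.5 CPM in the captures and 35.6 and 36.0 CPM in the inputs (log2 -1.08 ± 0.27, adjusted p 0.00184). HIST3H2BB gave log2 -1.07 ± 0.30 (adjusted p 0.00458). The highest, HIST2H3A, had log2 0.70 and was not called (adjusted p 0.215). Without capture replicate 1 there were 10 calls, and those of HIST1H2BK and HIST3H2BB were lost. The call of HIST2H2AC was lost without any 1 of the 4 libraries and with DESeq2, and with total counts those of HIST1H2BK, HIST1H4C, HIST2H2AC and HIST3H2BB were lost.

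**Figure D3:**
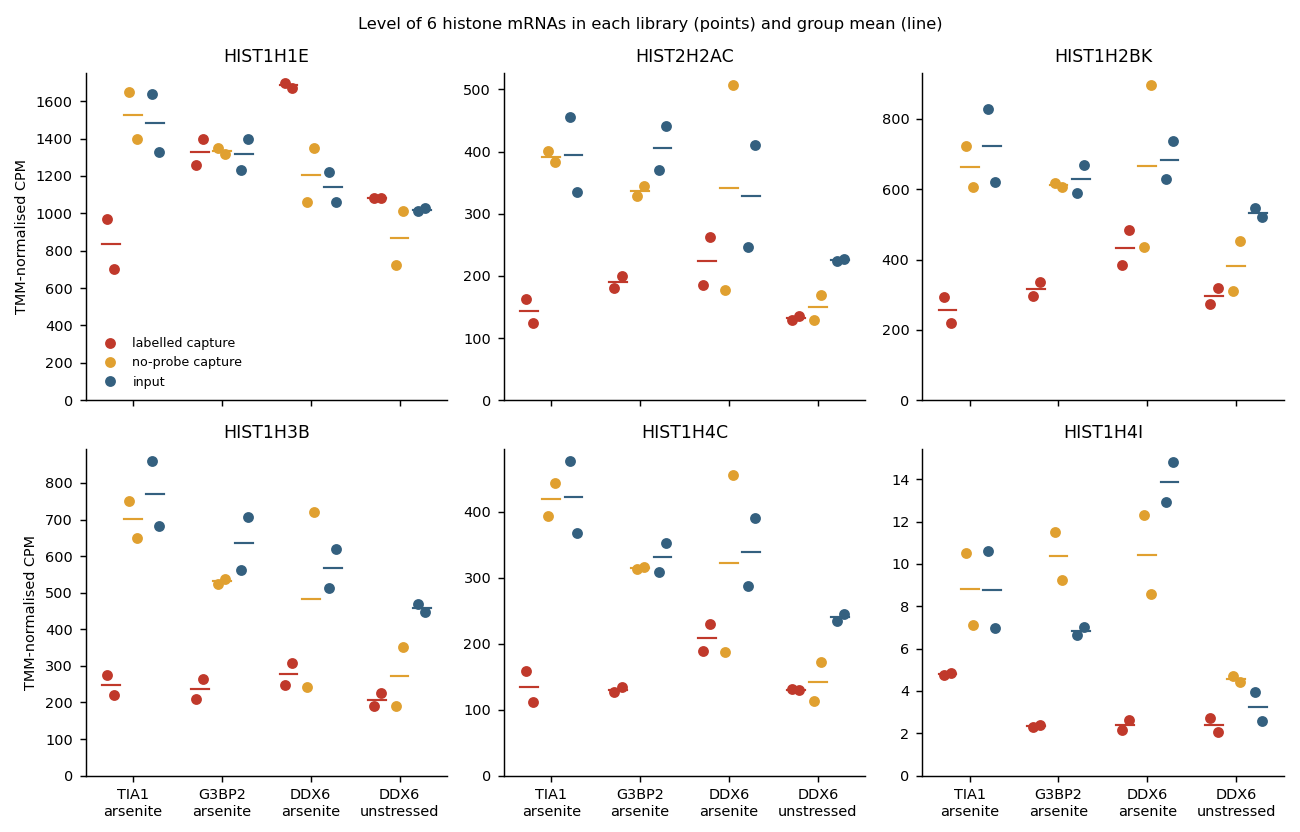
Levels in CPM, on a linear scale, of the gene with the highest input level of each histone type and of HIST1H4I; each point is 1 library and each line a group mean. HIST1H1E reaches 1700 and 1670 CPM in the DDX6 captures under arsenite, above its inputs at 1220 and 1060 CPM, while HIST1H3B lies below its inputs in the captures of every setting.

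Set against the no-probe captures, which show what binds the beads without label, the 2 stress granule lines again had lower histone mRNA. For TIA1, 43 of 48 genes fell and none rose, where 21.7% of all tested genes fell and 23.7% rose, and the median log2 fold change was -1.41. HIST1H1D was among those called there (log2 -0.62, adjusted p 0.024), but gave 0.23 with scaling by total counts, under which 22 genes were called. For G3BP2, 35 fell and none rose, where 21.7% of all tested genes fell and 23.7% rose, with a median of -0.90, and 21 fell without capture replicate 1. These comparisons share their captures with those over input. For DDX6 under arsenite 14 fell and 1, HIST1H1E, rose (log2 0.49, adjusted p 0.0424), where 20.2% of all tested genes fell and 22.5% rose. That median of -0.52 rests on 1 library: without no-probe replicate 1 it was -0.98 with 35 calls, and without no-probe replicate 2 it was 0.20 with 5 calls, 4 of them higher. Without capture replicate 1 there were 6 calls. With scaling by total counts the median was 0.05, with 1 fall and 3 rises, and without no-probe replicate 1 the rise of HIST1H1E was 0.32 and not called.

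For unstressed DDX6 cells no histone gene passed the threshold against the no-probe captures with edgeR, where 23.1% of all tested genes fell and 25.1% rose. At an unadjusted p under 0.05 there were 4 genes (HIST1H1D and HIST1H3E higher, HIST2H2BE and HIST1H4I lower), and DESeq2 called 1. Without no-probe replicate 1 edgeR called 6, all lower, and without no-probe replicate 2 it called 1, higher. With only the compared groups fitted it called 13, 10 lower and 3 higher, and with scaling by total counts 5, all higher. The median log2 fold change was -0.19, and 0.12 with scaling by total counts. HIST1H4I, with 2.74 and 2.07 CPM in the captures and 4.71 and 4.43 CPM without probe, gave log2 -0.91 ± 0.43 (adjusted p 0.0778). In the no-probe captures over inputs themselves edgeR called no histone gene in any of the 4 settings, where 0.0139% of all tested genes were called for TIA1, 0.167% for G3BP2, 0% for DDX6 under arsenite and 0.0139% for DDX6 unstressed. Unadjusted p-values under 0.05 were found for 0, 3, 0 and 15 histone genes in the same order. The share of all tested genes at that unadjusted threshold was not computed, and DESeq2 counts for these contrasts are not given here. The 15 unstressed genes were all lower without probe, at a median log2 over the 48 genes of -0.45. In that line no-probe replicate 1 had 4151 CPM of histone mRNA and replicate 2 had 6337 CPM.

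Counting the captures over input, 15 of the 48 histone genes fell in all 4 settings, as did 5.7% of all tested genes. They are the H3 genes HIST1H3B, HIST1H3H and HIST1H3J, the H4 genes HIST1H4C and HIST1H4E, the H2A genes HIST1H2AI and HIST1H2AL, and 8 H2B genes (HIST1H2BD, HIST1H2BF, HIST1H2BK, HIST1H2BL, HIST1H2BN, HIST2H2BE, HIST2H2BF and HIST3H2BB). Another 5 fell in none, as did 66.3% of all tested genes: the linker gene HIST1H1D, and HIST1H2BG, HIST2H2AA3, HIST2H3A and HIST2H4A. The last 4 had low counts, at 172, 190, 143 and 56 over the 8 inputs, against 2261 for HIST1H1D. For these 4 a missing call does not show that the level was unchanged. The remaining 10, 11 and 7 genes fell in 1, 2 and 3 settings.

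The genes with an annotated spliced coding transcript were looked at apart, because such transcripts can carry a poly(A) tail: HIST1H2AC, HIST1H2BC, HIST1H2BD, HIST1H2BE, HIST1H2BJ, HIST1H2BN, HIST2H2BF, HIST1H3E and HIST1H4H. Of the 8 tested, 7 fell over input with TIA1 (median log2 -1.31), as did 34 of the 40 others (-1.46). With G3BP2 all 8 fell (-1.01), and 26 of the 40 others (-0.91). With DDX6 under arsenite 3 of the 8 fell (-0.46), and 14 of the 40 others (-0.55). Unstressed, 4 of the 8 fell (-0.57), and 17 of the 40 others (-0.55). The counts do not separate reads of spliced transcripts from reads of the stem-loop form of the same gene. Nor are the 40 others limited to a stem-loop end: the unspliced model of HIST2H2BE, for example, runs 1729 bases past its stem-loop.

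By form of the stem-loop, the median over input with TIA1 was -1.55 for the 5 H4 genes with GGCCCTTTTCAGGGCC, of which 5 fell. It was -1.39 for the 15 tested genes with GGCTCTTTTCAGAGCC, of which 12 fell. These 15 include HIST1H2BN, whose match lies next to HIST1H2AL. The 3 H2B genes with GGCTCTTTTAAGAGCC all fell (-1.68), and of the 3 H4 genes with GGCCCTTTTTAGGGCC 1 fell (-0.88). The order of the forms was not the same in the other settings: the last form, whose 3 genes all had low levels, had the lowest median of the 4 with G3BP2 (-1.54, 1 of 3 fell) and with DDX6 under arsenite (-0.76, 1 of 3 fell) and the highest with DDX6 unstressed (-0.13, none fell). By cluster, the 34 tested HIST1 genes had a median of -1.44 with TIA1 and -0.96 with G3BP2, and the 11 HIST2 genes -1.36 and -0.55 in the same order.

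Length ran along with the direction of the change, and its part in the falls was not tested. Across the 14327 genes with a length, log2 fold change over input rose with exon length at a Spearman rho of 0.30 for TIA1, 0.27 for G3BP2, 0.18 for DDX6 under arsenite and 0.21 unstressed. Among the 48 histone genes alone, which share their libraries, rho was 0.16, 0.08, -0.23 and -0.05 in the same order. After the trend over all genes was taken off, the median log2 fold change of the histone genes over input was -0.44 for TIA1, and it changed sign to 0.10 for G3BP2, 0.33 for DDX6 under arsenite and 0.45 unstressed. By GC content rho over the 48 genes was 0.07, 0.19, 0.36 and 0.25, and by input level per length -0.17, -0.11, 0.03 and -0.21.

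The baits were compared by the difference of their log2 fold changes over input, in which the baits share no library. Relative to TIA1, 46 of 48 histone genes had a higher value with DDX6 under arsenite, at a median difference of 0.92, and the median of all tested genes was -0.03. Of the 48, 4 passed the threshold as higher and none as lower, where 0.843% of all tested genes were higher and 1.51% lower. HIST1H1E had the difference 1.39 ± 0.27 (adjusted p 0.00444), set by log2 0.56 with DDX6 and -0.83 with TIA1. HIST1H2AG, HIST1H2BC and HIST1H1C were the other 3, named here because they were called and not by the rule for named genes.

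HIST1H2AG, an H2A gene, had 257 and 295 CPM in the DDX6 captures and 291 and 318 CPM in their inputs, and 120 and 108 CPM in the TIA1 captures and 348 and 330 CPM in their inputs. Captures and inputs were close in the DDX6 line and far apart in the TIA1 line, and the difference of log2 fold changes was 1.43 ± 0.31 (adjusted p 0.0108). HIST1H2BC had 158 and 184 CPM in the DDX6 captures and 221 and 232 CPM in their inputs, and 97.8 and 63.2 CPM in the TIA1 captures and 332 and 217 CPM in their inputs (difference 1.36 ± 0.35, adjusted p 0.0305). HIST1H1C, the H1.2 gene, had 841 and 923 CPM in the DDX6 captures and 888 and 831 CPM in their inputs, and 507 and 394 CPM in the TIA1 captures and 959 and 891 CPM in their inputs (difference 1.07 ± 0.28, adjusted p 0.0362). HIST1H2BK (0.84 ± 0.33, adjusted p 0.164), HIST1H4C (0.95, adjusted p 0.141), HIST2H2AC (0.91, adjusted p 0.212) and HIST1H3B (0.61, adjusted p 0.458) were not called. HIST1H4J had the highest difference (1.90 ± 0.57, adjusted p 0.0663) and HIST1H4I the lowest (-1.65 ± 0.52, adjusted p 0.0828), and neither passed. DESeq2 called 8, all higher, and edgeR with no filter on low counts 13. The number of calls depended on single libraries: it was 1 without DDX6 input replicate 1 or without TIA1 input replicate 1, 2 without DDX6 capture replicate 2 or without TIA1 capture replicate 2, and 9 without DDX6 capture replicate 1.

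**Figure D4:**
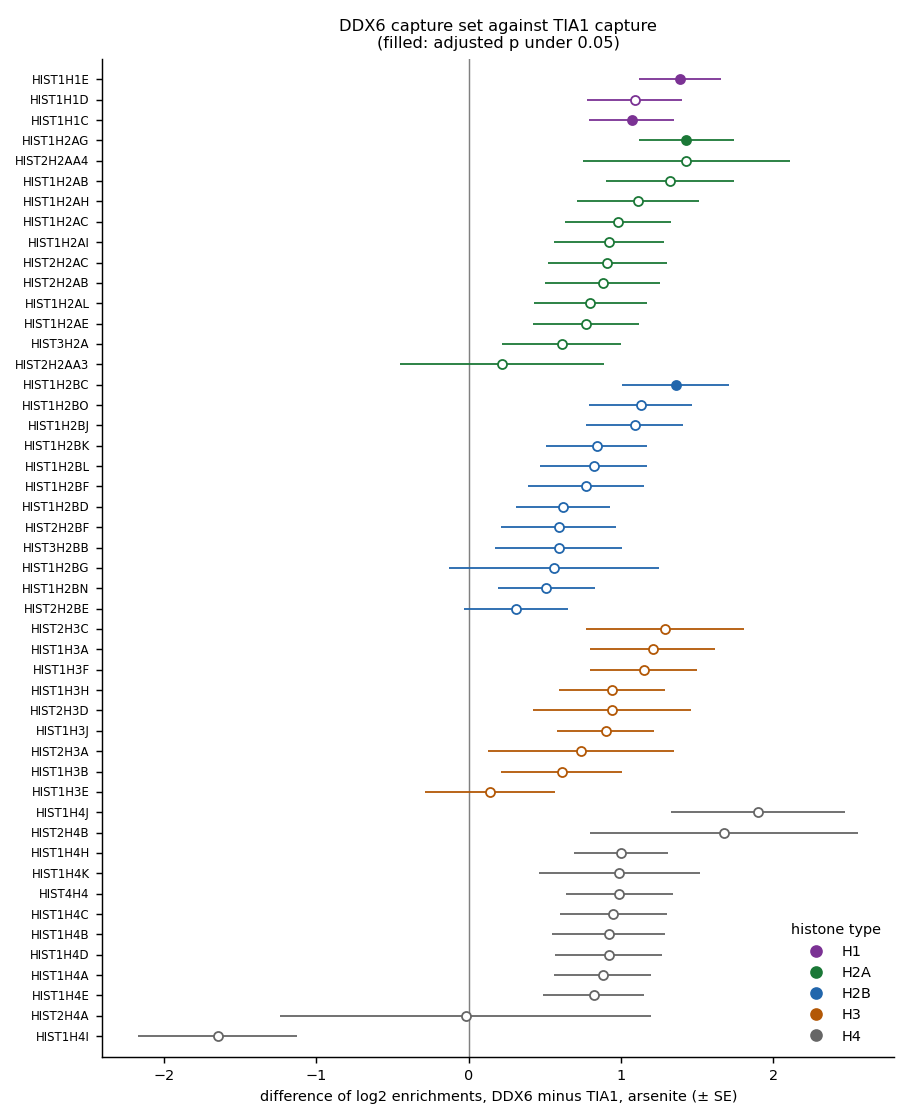
Difference of log2 fold change over input, DDX6 minus TIA1 under arsenite, for each of the 48 tested histone genes, with the standard error as bars, colours for the histone type and filled points for adjusted p under 0.05. All but 2 genes lie above 0, the median is 0.92, and the 4 genes past the adjusted p threshold of 0.05 are HIST1H1E, HIST1H2AG, HIST1H2BC and HIST1H1C.

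The 2 stress granule baits were not told apart for any single histone gene: TIA1 minus G3BP2 gave no call with edgeR, where 3.61% of all tested genes were called, with 5 genes at an unadjusted p under 0.05 and 1 call with DESeq2. The median difference was -0.47, and 43 of 48 genes had the lower value with TIA1. The histone genes share their libraries, and the share of all tested genes with a lower value is not given here. HIST1H1E gave -0.84 ± 0.27 (adjusted p 0.0749), HIST1H2BK -0.51 (adjusted p 0.412) and HIST1H3B -0.22 (adjusted p 0.816). DDX6 minus G3BP2 gave no call with edgeR and none with DESeq2, where 0.0487% of all tested genes were called, with 8 genes at an unadjusted p under 0.05. That median was 0.38, and HIST1H1E had 0.55 ± 0.27 (adjusted p 0.462).

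For arsenite against no stress in the DDX6 line, the difference of log2 fold changes over input gave no call among the histone genes with edgeR or DESeq2, where 0.0209% of all tested genes were called. Only 2 genes had an unadjusted p under 0.05, HIST1H4I (-2.08 ± 0.57, adjusted p 0.894) and HIST1H1D (0.63 ± 0.31, adjusted p 1.0), and the median difference was 0.13. HIST1H1E had 0.48 ± 0.27.

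In the inputs of the DDX6 line, arsenite went with more histone mRNA in the median. All 48 genes had a log2 fold change above 0, at a median of 0.49, against 0.02 over all tested genes. With scaling by total counts the median was 0.28. Shorter genes had higher values in this comparison: over the 14327 genes with a length, Spearman rho with exon length was -0.25. With that trend taken off, the histone median was 0.3, and the part of length in the rise was not tested. Only HIST1H4I passed the threshold, where 0.362% of all tested genes rose and 0.787% fell. It had 12.9 and 14.8 CPM in the arsenite inputs (35 and 45 counts), against 3.95 and 2.57 CPM in the unstressed inputs (14 and 8 counts), a 4.18-fold rise (log2 2.06 ± 0.37, adjusted p 0.0029). No histone gene was called without arsenite input replicate 2 or without unstressed input replicate 2, and 2 were without arsenite input replicate 1. At an unadjusted p under 0.05 there were 18 histone genes, all higher. The share of all tested genes at that unadjusted threshold was not computed. HIST1H4C had 288 and 390 CPM under arsenite and 235 and 245 CPM unstressed (log2 0.50, adjusted p 0.323), HIST1H2BK had log2 0.36 (adjusted p 0.452) and HIST1H1E 0.16 (adjusted p 0.72). The lowest was HIST1H2BN at 0.06. In bulk RNA more cells of a kind, such as cells in S phase, and more RNA per cell cannot be told apart.

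Between the arsenite inputs of the lines few histone genes differed. HIST1H1D was lower in TIA1 inputs than in G3BP2 inputs, with 78.5 and 96.7 CPM against 183 and 196 CPM (log2 -1.11 ± 0.22, adjusted p 0.00257), the only call there, where 1.94% of all tested genes were lower. It was also lower in DDX6 inputs, with 72.4 and 95.8 CPM, than in those of G3BP2 (log2 -1.16 ± 0.22, adjusted p 0.00267). HIST1H3F had 18.8 and 22.6 CPM in DDX6 inputs and 43.1 and 47.9 CPM in G3BP2 inputs (log2 -1.13 ± 0.24, adjusted p 0.0133). These were the only 2 calls of that pair, where 0.292% of all tested genes were lower. DDX6 inputs over TIA1 inputs gave no call among the histone genes with edgeR, where 0.877% of all tested genes were called, with 5 genes at an unadjusted p under 0.05.

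The makeup of histone mRNA differed with the kind of library. H1 mRNA was 31.1 to 38.2% of histone counts in the 8 labelled captures, against 19.3 to 28.9% in the no-probe captures and 19.7 to 24.8% in the inputs, so the captures lay above all other libraries. H2B mRNA was 25.4 to 27.8% in labelled captures, against 27.6 to 32.6% without probe and 28.6 to 34.5% in inputs. H4 mRNA was 10.2 to 12.6% in labelled captures and 12.8 to 14.7% in inputs, so each capture lay below each input, while the ranges of labelled and no-probe captures overlapped. For H2A and H3 the ranges of captures and inputs overlapped: H2A was 15.3 to 17.8% in labelled captures and 16.1 to 18.3% in inputs, and H3 was 9.5 to 13.1% in labelled captures and 12.4 to 15.2% in inputs.

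For the lists that follow, the shares of all tested genes that fell and rose over input are those given above: 16.4% and 19.4% with TIA1, 17.5% and 20.8% with G3BP2, 17.3% and 20.4% with DDX6 under arsenite, and 19.6% and 22.9% unstressed. The first list holds histone variants that are made outside S phase and carry poly(A) tails. Of 12 tested over input, 2 fell and 3 rose with TIA1 (median log2 0.19), 2 fell and 3 rose with G3BP2 (-0.08), 1 fell and 4 rose with DDX6 under arsenite (0.30) and 1 fell and 2 rose unstressed (0.17). With 12 genes these counts lie near the shares over all genes. H1F0, the linker histone of resting cells, had 843 and 635 CPM in the TIA1 captures, against 326 and 275 CPM in the inputs (log2 1.30 ± 0.24, adjusted p 7.1e-05). It also rose with G3BP2 (0.90), with DDX6 under arsenite (0.78) and unstressed (0.91). H3F3B, a gene of the replacement histone H3.3, had 738 and 664 CPM in the TIA1 captures and 430 and 444 CPM in the inputs (log2 0.68 ± 0.16, adjusted p 0.00146). H2AFX, whose mRNA is known in both a stem-loop and a poly(A) form, fell with TIA1 (log2 -0.57, adjusted p 0.0228) and had -0.36, -0.21 and -0.12 in the other settings without a call. H2AFZ was called in none, with log2 values of -0.28, -0.28, 0.33 and 0.14.

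The next list holds mRNAs of the machinery that makes histone mRNA. Of 15 tested genes of histone mRNA processing, 2 fell and 5 rose over input with TIA1 (median log2 0.29), 1 fell and 8 rose with G3BP2 (0.54), 1 fell and 8 rose with DDX6 under arsenite (0.57) and 1 fell and 9 rose unstressed (0.65). More rose than fell in each setting. The part of the list that rose was larger than over all tested genes in each setting, and this was not tested. SLBP, the protein that binds the stem-loop, had 158 and 159 CPM in the TIA1 captures, against 51.0 and 67.8 CPM in the inputs (log2 1.42 ± 0.17, adjusted p 2.64e-07). With G3BP2 it had 184 and 176 CPM in the captures, against 69.0 and 66.1 CPM in the inputs (log2 1.41, adjusted p 9.61e-08). It also rose with DDX6 under arsenite (1.15, adjusted p 3.87e-06) and unstressed (0.98, adjusted p 3.38e-05), and over the no-probe captures in all 4 settings. In every setting both SLBP captures lay above both inputs.

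CASP8AP2 (FLASH), which helps cut the histone pre-mRNA, rose over input by log2 0.89, 0.86, 1.06 and 0.92 in the order of TIA1, G3BP2, DDX6 under arsenite and DDX6 unstressed. NPAT, the activator of histone gene transcription, rose by 0.95, 0.74 and 0.99 with TIA1, DDX6 under arsenite and DDX6 unstressed, and had 0.34 with G3BP2 without a call (adjusted p 0.146). SYMPK, the scaffold of the cleavage complex, fell in all 4 settings, with log2 values of -0.88, -0.47, -0.80 and -0.47 in the same order as CASP8AP2.

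Of 22 tested genes of histone mRNA decay and translation, 5 fell and 8 rose over input with TIA1 (median log2 0.16), 2 fell and 9 rose with G3BP2 (0.33), 3 fell and 8 rose with DDX6 under arsenite (0.09) and 3 fell and 9 rose unstressed (0.23). Falls and rises both occurred in each setting. The part of this list that rose was larger than over all tested genes in each setting, and this was not tested. The decapping enzyme gene DCP2 rose by log2 1.56, 1.53, 1.09 and 1.08 in the same order, and ERI1, the exonuclease that trims the histone 3′ end, by 0.80, 0.99, 0.82 and 0.86. LSM3, a subunit of the LSm ring that binds the tailed end, fell with TIA1 (log2 -1.31, adjusted p 2.84e-05) and G3BP2 (-0.99, adjusted p 0.000301) and was not called with DDX6. Of 13 histone chaperone genes 2 fell and 4 rose with TIA1 (0.20), none fell and 6 rose with G3BP2 (0.36), 2 fell and 6 rose with DDX6 under arsenite (0.20), and 1 fell and 6 rose unstressed (0.45). SUPT16H, a subunit of the chaperone FACT, rose by 0.77, 1.40, 1.06 and 0.79.

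The mRNAs of other S phase genes, which are poly(A)-tailed and are made at the same time, were described beside these. Of 25 tested over input, 5 fell and 6 rose with TIA1 (median log2 0.21), 2 fell and 13 rose with G3BP2 (0.52), 2 fell and 13 rose with DDX6 under arsenite (0.40) and 1 fell and 14 rose unstressed (0.49). The TIA1 counts lie near the shares over all tested genes, and in the other settings the medians of all tested genes were -0.01, -0.02 and 0.01 in the same order. PCNA, the sliding clamp of the replication fork, rose by log2 0.78, 0.67, 1.06 and 0.85 in the order of TIA1, G3BP2, DDX6 under arsenite and DDX6 unstressed. RFC3, of the clamp loader, rose by 1.15, 0.96, 0.95 and 0.79. CDT1, which loads the replicative helicase, fell with TIA1 (-1.19, adjusted p 3.93e-05), G3BP2 (-0.74) and DDX6 under arsenite (-0.80) and was not called unstressed (-0.33, adjusted p 0.192).

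**Figure D5:**
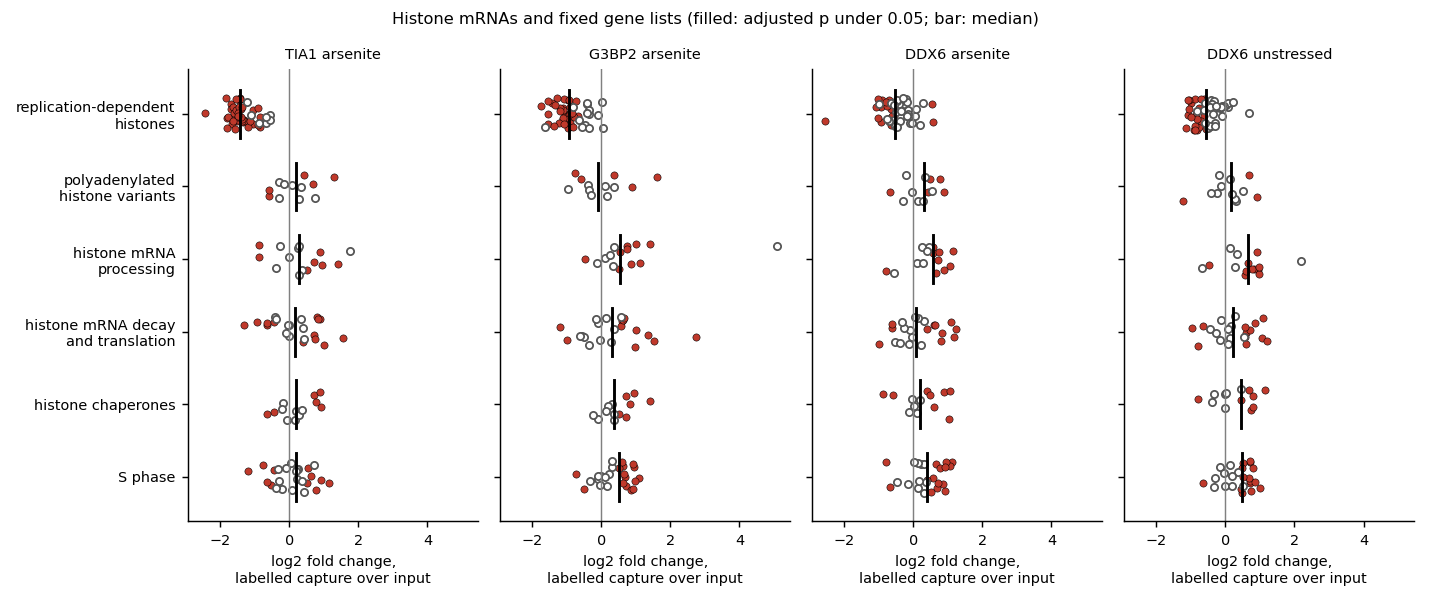
Log2 fold change of labelled capture over input for the histone genes and the lists of related genes, by bait and treatment; each point is 1 gene, filled where adjusted p was under 0.05, and the bar is the list's median. The histone genes have medians of -1.43, -0.93, -0.53 and -0.57, while the medians of the S phase genes are 0.21, 0.52, 0.40 and 0.49.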

How the data were processed

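RNA was sequenced from 24 libraries of HEK293T cells, 2 for each of 12 groups given by the labels. The authors deposited raw counts per Ensembl gene (release 87, per the file headers). The submitters' processing notes name cutadapt 1.18, FastQC 0.11.8, HISAT2 2.1.0, SAMtools, HTSeq 0.7.2 and GRCh38. The strand setting of the counting is not given in the sources used here. The labels do not say whether replicates were separate cultures, so p-values measure the spread between these samples only.

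Counts were fitted in R 4.3.3 with edgeR 4.0.16 (limma 3.58.1): filterByExpr, which kept 14360 genes, trimmed-mean scaling, and 1 quasi-likelihood model of 12 groups with 12 residual degrees of freedom and a biological coefficient of variation of 12.9%. Two-sided p-values were adjusted over all 14360 genes by the Benjamini-Hochberg method, with a threshold of 0.05. Counts at an unadjusted p under 0.05 were made for the histone genes only, so no share over all tested genes stands beside them. Errors are standard errors of the model. The script was tested on simulated counts. Symbols, lengths and positions come from GENCODE 29, which 57388 genes of the table matched.

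The histone genes, the lists of other genes and the rule for named genes were chosen with earlier results of these data known. The rule names, in each comparison, the histone gene of each type with the highest input level per length, the 3 highest and 3 lowest fold changes and calls against the main direction. In each other list it names the 3 largest changes called and SLBP, CASP8AP2, NPAT, ERI1, H3F3B, H2AFZ and H2AFX, of which some are given. Alternatives were relative-log-expression and total-count scaling, DESeq2 1.42.0, no filter on low counts, a fit of the compared groups only, a replicate block, removal of the exon-length trend and leaving out each library.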

Additional observations from a re-analysis of the deposited data

Results flagged for a closer look

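The change over input differed between the DDX6 and TIA1 lines under arsenite, by a test of the difference itself, for 4 histone genes. The difference, DDX6 minus TIA1 on the log2 scale, was 1.39 for HIST1H1E, 1.43 for HIST1H2AG, 1.36 for HIST1H2BC and 1.07 for HIST1H1C. Groups of 2 libraries are too small to screen for a library far from the others.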

How the results depend on the processing

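The median for TIA1 over input was below 0 under every alternative run. With scaling by total counts the calls over input were 18 for G3BP2 (16 lower), 6 for DDX6 under arsenite (2 lower, 4 higher) and 8 for DDX6 unstressed (6 lower), and those over no probe were 22 for TIA1, 4 for DDX6 under arsenite (1 lower, 3 higher) and 5 for DDX6 unstressed, all higher. The medians turned to 0.01 over input and 0.05 over no probe for DDX6 under arsenite and to 0.12 over no probe unstressed, and HIST1H1D with TIA1 over no probe to 0.23. With the exon-length trend taken off, the medians turned to 0.10 for G3BP2, 0.33 for DDX6 under arsenite and 0.45 unstressed over input, and to 0.43, 0.46 and 0.81 over no probe in the same order. The histone share of non-mitochondrial counts, captures over inputs, was 0.47 for TIA1, 0.669 for G3BP2, 0.853 for DDX6 under arsenite (1.17 of all counts) and 0.714 unstressed.

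For DDX6 unstressed over no probe, with 0 calls in edgeR, there was 1 with DESeq2, 1 with relative-log-expression scaling, 4 with no filter (all higher, median 0.01), 13 with only the compared groups fitted (10 lower, 3 higher) and 4 with a replicate block (1 lower, 3 higher). For DDX6 under arsenite over no probe, 4 were called with only the compared groups. TIA1 minus G3BP2 gave 1 call with DESeq2, 1 with no filter, 5 with only the compared groups and 1 with the replicate block. DDX6 minus TIA1 gave 8 with DESeq2, 13 with no filter and 24 with the replicate block (23 higher, 1 lower), and DDX6 minus G3BP2 gave 1 with the block. Between the DDX6 inputs there were 4 calls with no filter, 3 with only the compared groups and 7 with the block. The labels give replicates only a shared number, and the deviations of same-numbered captures and inputs correlated by 0.18 for TIA1, 0.05 for G3BP2, 0.42 for DDX6 under arsenite and 0.00 unstressed, with 2 pairs each. The cause of each of these shifts was not tested.

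Leaving out each library in turn, the calls over input ranged over 33 to 41 for TIA1, 26 to 33 for G3BP2, 5 to 15 for DDX6 under arsenite and 10 to 14 unstressed. Over no probe they ranged over 38 to 42 for TIA1, 21 to 32 for G3BP2, 5 to 35 for DDX6 under arsenite and 0 to 6 unstressed. They ranged over 1 to 9 for DDX6 minus TIA1 and 0 to 2 between the DDX6 inputs, and were 0 throughout for the 3 other differences. For DDX6 under arsenite over no probe, leaving out no-probe replicates 1 and 2 in turn gave medians of -0.98 and 0.20, log2 values of -1.37 and 0.20 for HIST1H3B, and -1.13 and 0.16 for HIST1H4C. Unstressed, the medians were -0.40 and 0.20. Depth limits the low genes: over input with TIA1 the standard error was 0.73 for HIST2H4A and 0.69 for HIST2H4B, against 0.24 for HIST1H2BK.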
